A study of Bos taurus with 7 samples.

Results

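Bovine miR-1246 and miR-1260b were followed in 7 plasma samples of Japanese-Black cows bled on day 21 after artificial insemination, 4 from pregnant and 3 from non-pregnant cows. The miRNAs were taken by name, as bta-miR-1246 and bta-miR-1260b, from the non-control rows of the scanner files, and are 2 of the 744 bovine miRNAs on the array. Each sample was read on a separate 1-colour array, and both groups shared breed, tissue, day and estrus control before insemination. Cow numbers 1, 3 and 4 occur in both groups, and the sample titles do not say whether they mark the same animals. Each miRNA was read by 2 probes with 10 replicate spots per probe, that is 40 spots of the 14880 per array.

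Both names stand for short RNAs that resemble pieces of larger structural RNAs. miR-1246 resembles a stretch of the U2 small nuclear RNA, a component of the spliceosome, and miR-1260b resembles the 3′ end of a transfer RNA, the adaptor of protein synthesis. Such fragments circulate in plasma, often in vesicles or protein complexes, and an array probe reads a fragment and a processed miRNA of the same letters alike. Neither resemblance was tested here against the sequence of a structural RNA.

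The probes are shown because they fix which letters the array could capture. Capitals mark the base by which the longer probe of a pair exceeds the shorter one.
miR-1246, shorter probe: cctgctccaaaaatc
miR-1246, longer probe: cctgctccaaaaatcC
miR-1260b, shorter probe: tggtggcagtggt
miR-1260b, longer probe: tggtggcagtggtG
miR-1246, reverse complement of the longer probe: Ggatttttggagcagg
miR-1260b, reverse complement of the longer probe: Caccactgccacca
All are written 5′ to 3′ in DNA letters, as read from the deposited probe sequences. The runs captured are the reverse complements of the probes.

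The probes of miR-1246 are 15 and 16 bases long with a GC content of 46.7% and 50.0%, and those of miR-1260b are 13 and 14 bases long with 61.5% and 64.3%. On UMD 3.1 (bosTau6), the build in the file headers, the longer probe of miR-1246 lies at chr1:116822083-116822097 and that of miR-1260b at chr15:14156957-14156969, which the file lists in descending order. These intervals span 15 and 13 bases, 1 fewer than the letters of each probe. In RefSeq names on ARS-UCD2.0, MIR1246 overlaps no other listed gene and lies between MBNL1 and SUCNR1. MIR1260B overlaps MAML2, which encodes a coactivator of Notch signalling; whether it lies in an exon or an intron is not given by that table.

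The captured run of miR-1260b closes with the letters CCA, which also close mature transfer RNAs. Among all bovine probes, 21 of 1617 (1.30%) have a captured run that ends in CCA, from 10 of 744 miRNAs, and both probes of miR-1260b are among them while neither probe of miR-1246 is. The longest run of letters that the longer miR-1246 probe shared with a probe of any other bovine miRNA was 9 bases, with miR-2315. For miR-1260b it was 7 bases, with miR-2397-5p. Neither miR-2315 nor miR-2397-5p was called detected on any array.

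Across the 7 arrays the signal summed over all bovine miRNAs ranged from 12079 to 101065, and 40 miRNAs were called detected on every array. As a check of the plasma label, the 5 red-cell miRNAs listed had a summed signal of 51.8 to 94.0 in pregnant and 23.9 to 71.1 in non-pregnant cows. The 4 white-cell miRNAs had 143 to 423 against 56.2 to 171, and the liver miRNA miR-122 had 0.100 to 48.8 against 3.26 to 21.9, where 0.100 stands for not detected. Of the red-cell list miR-144, and of the white-cell list miR-142-3p, was detected on no array. The part of blood-cell RNA in the levels below was not tested, and in plasma fewer cells shedding an RNA and less RNA shed per cell cannot be told apart.

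Both miRNAs were detected in every cow, mainly through their longer probes. The scanner software called miR-1246 and miR-1260b detected on 7 of 7 arrays, and it requires a signal above 3 times its error. The signal per miRNA, which the software sums over the probes it calls detected, was 9.34 to 10.8 times its error for miR-1246 and 7.04 to 10.5 times for miR-1260b. This signal thus held the longer probe alone on some arrays and both probes on others.

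In single spots, the longer probe of miR-1246 was well above background in 68 of 70 spots over all arrays and that of miR-1260b in 69 of 70. Their spot means, with flagged outlier spots left out, ran from 50.3 to 102 for miR-1246 and from 18.2 to 68.5 for miR-1260b. No spot of any of the 4 probes was saturated.

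The shorter probes gave little signal. That of miR-1246 had spot means of 1.77 to 10.4 and was well above background in 31 of 70 spots, and in over 50% of its spots on 3 arrays. That of miR-1260b had spot means of 1.12 to 9.01, was well above background in 14 of 70 spots, and passed 50% of spots on 1 array, non-pregnant 3. Both probes that lack the last base thus lay near background on most arrays, and no fold between groups is given for the shorter probes.

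Replicate spots agreed closely on most arrays and poorly on a few. The coefficient of variation over the spots of the longer probe was 5.97% to 11.6% on 5 of 7 arrays for miR-1246 and 5.74% to 14.4% on 5 of 7 for miR-1260b. It was highest for miR-1246 in pregnant 4, at 47.3%, where unflagged spots ran from 11.3 to 158 around a median of 122. The cow with the highest miR-1246 signal was therefore also the one measured with the widest spot spread, and the standard error of its probe mean was 15.0% of the mean. For miR-1260b the widest spread, 28.2%, was in non-pregnant 4, with spots from 30.8 to 71.8.

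**Figure D1:**
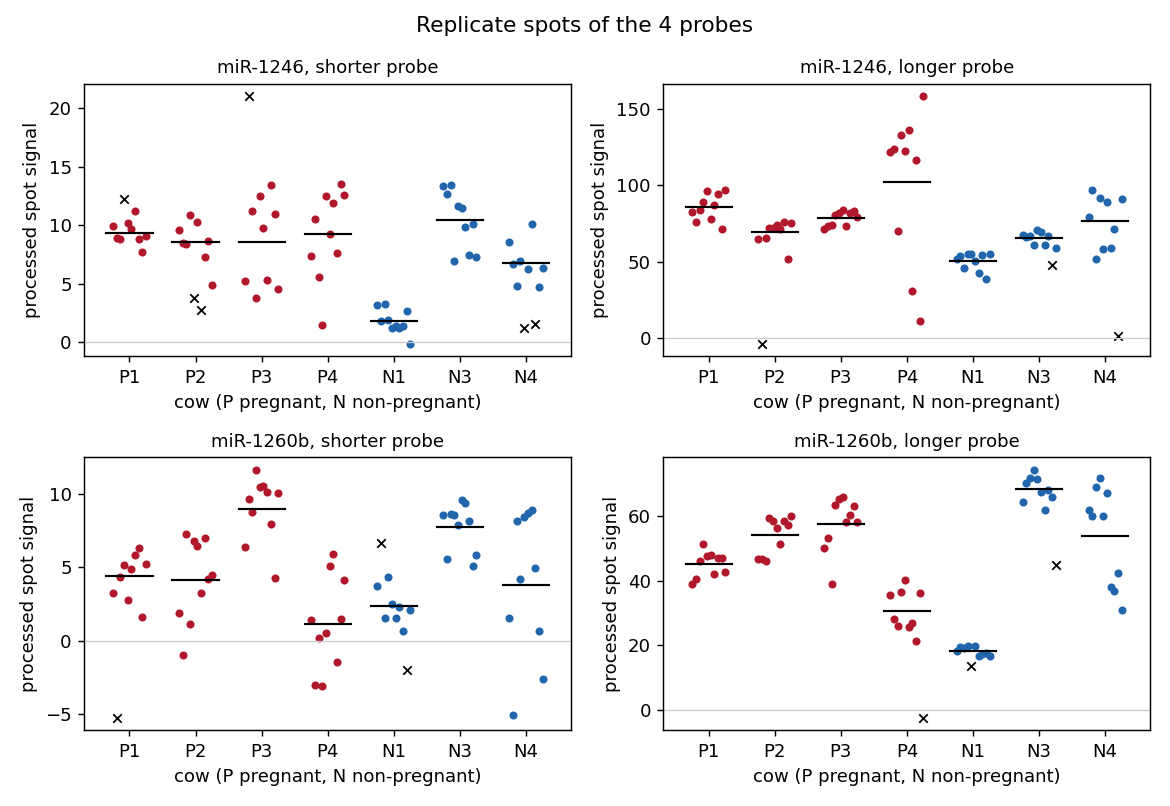
Background-subtracted signal of each replicate spot (vertical axis, intensity on a linear scale) for the 4 probes in the 7 cows, red for pregnant and blue for non-pregnant; crosses are spots flagged as outliers, and horizontal bars are the mean of the other spots. The longer probes sit clearly above 0 in every cow, the shorter ones near it, and the miR-1246 spots of pregnant 4 run from 11.3 to 158.

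The miR-1246 signal varied little between cows beside the brightness of their arrays. The signal per miRNA was 63.1, 51.6, 57.6 and 74.1 in pregnant 1 to 4, and 33.4, 50.4 and 55.3 in non-pregnant 1, 3 and 4. The highest was in pregnant 4 and the lowest in non-pregnant 1, a ratio of 2.22 (2.04 on the longer probe alone). The summed array signal had a ratio of 8.37 between its extremes. Pregnant 1, 3 and 4 exceeded every non-pregnant cow, but pregnant 2 lay below non-pregnant 4, so the groups overlapped.

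In means, miR-1246 stood at 61.6 ± 9.56 (SD, n = 4) in the pregnant group and 46.4 ± 11.5 (SD, n = 3) in the non-pregnant group. On the log2 scale the pregnant mean was 0.43 higher, 1.35-fold, which did not pass the exact permutation test (two-sided p = 0.0857 over 35 splits, whose smallest p is 0.0286, and 0.429 after Benjamini-Hochberg adjustment over 5 tests). Without non-pregnant 1, the array with the lowest total signal, the difference was 0.21. With normexp background correction, taken as the mean of both probes, it was 0.018. The mean of both probes without that correction gave 0.41. The correction adds an offset of 50 to each spot. The SD of log2 miR-1246 over the arrays was 0.36 for the signal per miRNA and 0.21 with the correction. Whether the offset accounts for the smaller group difference was not tested.

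The miR-1260b signal varied more between cows and followed the brightness of the array. It was 30.0, 35.9, 44.3 and 20.4 in pregnant 1 to 4, and 12.1, 50.6 and 35.7 in non-pregnant 1, 3 and 4. Non-pregnant cows held both the highest and the lowest value, so the pregnant range lay inside the non-pregnant one. The highest was 4.18 times the lowest, and 3.76 times on the longer probe alone.

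The group means of miR-1260b were 32.7 ± 10.1 (SD, n = 4) in the pregnant group and 32.8 ± 19.4 (SD, n = 3) in the non-pregnant group. On the log2 scale the difference was 0.17 in the pregnant direction (exact permutation p = 0.771, two-sided, adjusted 1.00 over the 5 tests). It turned to -0.44 without non-pregnant 1 and to -0.13 with normexp background correction, was 0.0015 without pregnant 3, and reached 0.59 without non-pregnant 3 and 0.38 without pregnant 4.

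**Figure D2:**
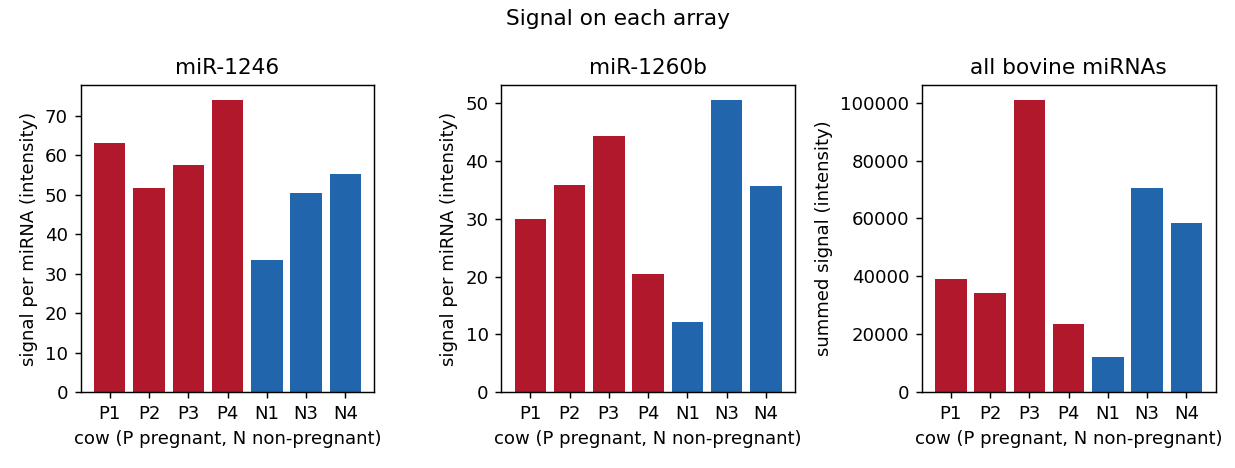
Signal per miRNA of miR-1246 and miR-1260b and the summed signal of all bovine miRNAs (bars, intensity on linear axes from 0) in each cow, red for pregnant and blue for non-pregnant. The miR-1246 bars lie between 33.4 and 74.1, whereas the summed signal runs from 12079 in non-pregnant 1 to 101065 in pregnant 3.

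Both members were small parts of the array signal. miR-1246 made up 0.161%, 0.150%, 0.0570% and 0.313% of the summed signal in pregnant 1 to 4, and 0.276%, 0.0715% and 0.0947% in non-pregnant 1, 3 and 4. The 3 arrays with the highest summed signal, pregnant 3, non-pregnant 3 and non-pregnant 4, had the 3 lowest shares. The mean share was 0.170% ± 0.106 (SD, n = 4) in the pregnant group and 0.148% ± 0.112 (SD, n = 3) in the non-pregnant group (exact permutation p = 0.80, two-sided, adjusted 1.00). The difference of 0.023 percentage points turned to -0.025 without pregnant 4, -0.016 without non-pregnant 3 and -0.0039 without non-pregnant 4. Against a total without the 8 brightest miRNAs it was -0.17. That is a share of a smaller total, so only its sign compares with the 0.023.

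miR-1260b held a steadier share. It made up 0.0765%, 0.104%, 0.0439% and 0.0860% in pregnant 1 to 4, and 0.100%, 0.0719% and 0.0612% in non-pregnant 1, 3 and 4. The means were 0.0777% ± 0.0253 (SD, n = 4) for pregnant and 0.0777% ± 0.0202 (SD, n = 3) for non-pregnant cows (exact permutation p = 1.00, two-sided). Against a total without the 8 brightest miRNAs the difference was -0.19 percentage points (exact permutation p = 0.20, two-sided, adjusted 0.50). That total is smaller, so the size of -0.19 does not compare with the shares above. The share was lowest in pregnant 3, the array with the highest summed signal, and the groups overlapped.

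Within an array the members did not keep a fixed ratio. The log2 ratio of miR-1246 to miR-1260b was 1.07, 0.52, 0.38 and 1.86 in pregnant 1 to 4, and 1.46, -0.0071 and 0.63 in non-pregnant 1, 3 and 4. It was highest on pregnant 4 and non-pregnant 1, the 2 arrays with the lowest summed signal, one in each group. These ratios show unequal change between arrays and not which RNA is more abundant, since probes differ in binding. The mean was 0.96 ± 0.67 (SD, n = 4) in the pregnant group and 0.70 ± 0.74 (SD, n = 3) in the non-pregnant group (exact permutation p = 0.657, two-sided, adjusted 1.00). The difference of 0.26 turned to -0.039 without pregnant 4 and to -0.089 without non-pregnant 3, and was 0.65 without non-pregnant 1 and 0.46 without pregnant 3.

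Over all cows, each member spread less than the summed signal, as did most miRNAs detected on all arrays (median SD 0.90). The SD of the log2 signal was 0.36 for miR-1246 and 1.03 for the sum of all other miRNAs, a difference of -0.67. For miR-1260b it was 0.71 against 1.03, a difference of -0.32. Exchanging the centred values within arrays in every possible way gave an exact permutation p of 0.0469 for each, two-sided, and 0.0469 after adjustment over the pair (the smallest p is 0.0156). With 6 arrays the smallest p is 0.0312, or 0.0625 after adjustment unless both members reach it. Leaving out any 1 array gave adjusted p of 0.0625 to 0.250, with differences of -0.75 to -0.54 for miR-1246 and of -0.37 to -0.19 for miR-1260b, whose smallest difference was without pregnant 3. Against a total without the 8 brightest miRNAs, the adjusted p was 0.281 for miR-1246 and 0.422 for miR-1260b.

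Of the 40 miRNAs detected on all arrays, miR-1246 had the smallest SD of log2 signal, and 10 had a smaller one than miR-1260b; the median was 0.90. Signal strength can bear on such an order. Among the 9 other miRNAs whose mean signal lay within 2-fold of that of miR-1246, the SD ran from 0.57 to 1.11 (median 0.95). Among the 11 other miRNAs within 2-fold of miR-1260b it ran from 0.48 to 1.11 (median 0.73), so miR-1260b was in the middle of its neighbours and miR-1246 below all of its own.

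miR-1260b rose and fell with the summed signal of the array, and for miR-1246 no such relation was found. For miR-1260b, Pearson's r between its log2 signal and the log2 sum of all other miRNAs was 0.94 (exact permutation p = 0.00238, adjusted 0.00476 over the pair) and Spearman's rho 0.86 (exact permutation p = 0.0238, adjusted 0.0476; n = 7). Over the 40 miRNAs detected on all arrays the median r with the total was also 0.94, so this relation was typical. For miR-1260b without the 2 arrays farthest from the median total, non-pregnant 1 and pregnant 3, r was 0.90. The adjusted p of rho was above 0.05, at 0.0667 to 0.206, with any 1 array other than pregnant 2 left out. Without non-pregnant 1 alone r was 0.86 with an adjusted exact permutation p of 0.0611, and centred within groups it was 0.94 (adjusted exact permutation p = 0.0278). The fitted slope was 0.65, below the value of proportional change, so arrays with more total signal gave it a smaller share. The signal per miRNA held the shorter probe on some arrays only, and the relation was not computed on the longer probe alone.

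For miR-1246, r was 0.42 (exact permutation p = 0.348) and rho 0.11 (exact permutation p = 0.840; n = 7), with a slope of 0.14. Without non-pregnant 1 and pregnant 3, r was -0.76, and without non-pregnant 1 alone -0.58, so the positive sign rests on that array; without pregnant 4 it was 0.78. Whether the relations of the 2 members differ was not tested. Of the other 39 miRNAs detected on all arrays, only the red-cell miRNA miR-451 had a lower slope, 0.13, with an SD of 0.87 where miR-1246 had 0.36. The median slope of the 40 was 0.72.

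**Figure D3:**
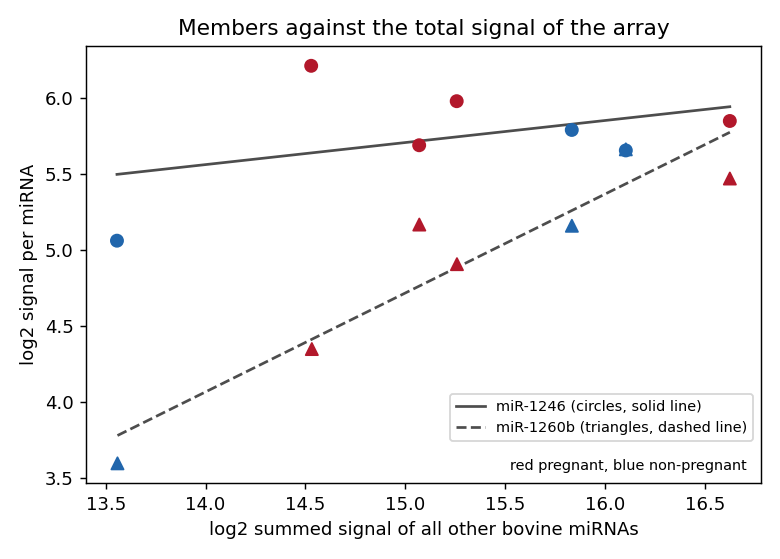
Log2 signal of miR-1246 (circles, solid line) and miR-1260b (triangles, dashed line) against the log2 summed signal of all other bovine miRNAs, 1 point per cow, red for pregnant and blue for non-pregnant; lines are least-squares fits. The dashed line has a slope of 0.65 and the solid one 0.14, and the 2 miRNAs meet on non-pregnant 3.

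Scaling the arrays to each other therefore changed the picture for miR-1246. For the scaled level, a probe's signal was divided by a percentile of its own array (the 75th, taken over the 57 probes detected throughout), set to a floor of log2 -6.36 where lower, and averaged over both probes as log2 values. That percentile itself ran from 172 in non-pregnant 1 to 1645 in pregnant 3. The shorter probe of miR-1246 was at the floor on 4 of 7 arrays and that of miR-1260b on 6 of 7. For miR-1246 these were pregnant 3 and every non-pregnant array, while pregnant 1, 2 and 4 had -6.02, -5.69 and -5.49. The scaled levels thus depend on the floor as well as on the longer probes.

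The scaled level of miR-1246 was -4.42, -4.19, -5.38 and -3.75 in pregnant 1 to 4, and -4.07, -5.18 and -4.89 in non-pregnant 1, 3 and 4. The 3 lowest were again the 3 arrays with the highest summed signal. Dividing the signal per miRNA by the same percentile raised its SD over the 7 arrays from 0.36 to 0.93 on the log2 scale, and 32 of the 40 miRNAs detected on all arrays then had a smaller one. On its longer probe alone the SD went from 0.32 to 0.98. Averaged over both probes with the floor, as in the scaled level, it was 0.18 without scaling and 0.61 with it.

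For miR-1260b the same division moved the spread less. Its scaled level was -5.05, -4.70, -5.60 and -5.06 in pregnant 1 to 4, and -4.72, -5.15 and -5.14 in non-pregnant 1, 3 and 4. Dividing its signal per miRNA by the percentile took the SD from 0.71 to 0.51, where the medians over the 40 miRNAs were 0.90 and 0.50, and 21 of the 40 then had a smaller one. Its longer probe alone went from 0.66 to 0.58. Averaged over both probes with the floor, the SD was 0.33 without scaling and 0.30 with it.

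**Figure D4:**
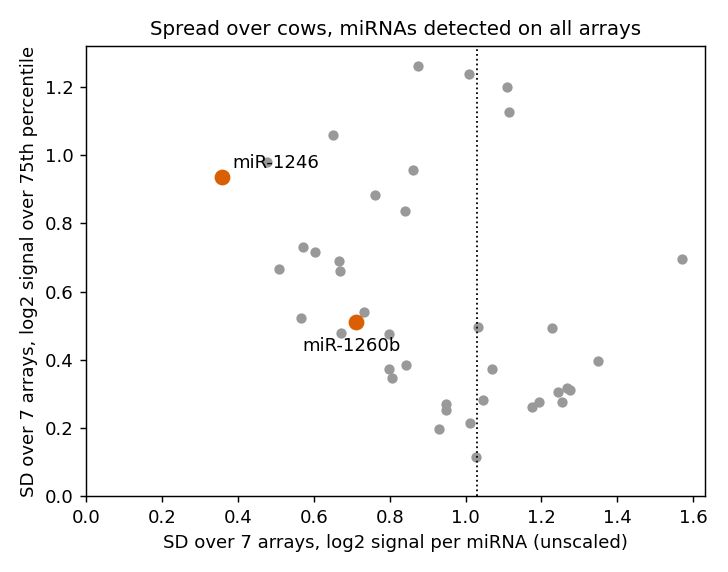
SD over the 7 cows of the log2 signal per miRNA after division by the 75th percentile of the array (vertical axis) against the SD of the same signal undivided (horizontal axis) for the 40 miRNAs detected on all arrays; orange points are miR-1246 and miR-1260b, and the dotted line is the SD of the log2 summed signal, 1.03. miR-1246 lies farthest to the left at 0.36 but at 0.93 on the vertical axis, and miR-1260b at 0.71 and 0.51.

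Between pregnant and non-pregnant cows neither scaled level passed the test. For miR-1246 it was -4.43 ± 0.69 (SD, n = 4) in the pregnant group and -4.71 ± 0.58 (SD, n = 3) in the non-pregnant group. The difference of 0.28 had a standard error of 0.45 and a 95% interval of -0.80 to 1.36 (limma adjusted p = 0.884). It was 0.60 without non-pregnant 1, 0.59 without pregnant 3, 0.054 without pregnant 4 and 0.045 without non-pregnant 3. The difference turned negative with quantile scaling (-0.027), normexp background correction (-0.13) and the scaled software signal (-0.20). On the longer probe alone it was 0.089. The scaled level is the mean of both probes, so the shorter probe differed by more than 0.28. That probe was set to the floor in every non-pregnant cow. Its unscaled spot mean in non-pregnant 3 was nevertheless the highest of the 7 arrays, at 10.4.

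For miR-1260b the scaled level was -5.10 ± 0.37 (SD, n = 4) in the pregnant group and -5.00 ± 0.25 (SD, n = 3) in the non-pregnant group. The difference was -0.097 with a standard error of 0.24 and a 95% interval of -0.67 to 0.47 (limma adjusted p = 0.954). Without pregnant 3 it was 0.068 and without non-pregnant 1 it was 0.046. It was also positive without scaling (0.093), with the percentile taken over all probes (0.19), with array weights (0.045) and in the deposited log2 values (0.17). With the scaled software signal it was -0.46.

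Neither member was thus among the miRNAs called. limma called 0 of the 88 tested miRNAs (0.00%) at an adjusted p under 0.05 and 1 (1.14%) at an unadjusted p under 0.05. The scaled levels of the groups overlapped for both members, as for all but 1 of the 88 (1.14% not overlapping). At an unadjusted p under 0.05, limma gave 11 miRNAs without pregnant 3, 10 without scaling, 9 with the software signal, 7 with array weights, and 0 with normexp or the floor doubled. Over the 88 miRNAs, 62 differences were positive, with a median of 0.18, but 8 were with normexp, 39 with quantile scaling, 46 with the floor doubled and 76 without scaling. A test that misses the threshold does not show that the levels are equal, and the interval of miR-1246 includes changes of over 2-fold upwards.

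The 2 members were not each other's closest match over the cows. Among 33 tested miRNAs well above background on all arrays, the scaled level of miR-1246 was most like miR-24-3p (r = 0.98), a member of the miR-23, miR-27 and miR-24 clusters, then miR-423-5p (r = 0.97) and miR-2388-3p (r = 0.92). The scaled level of miR-1260b was most like miR-2478 (r = 0.88), the red-cell miRNA miR-486 (r = 0.85) and miR-2374 (r = 0.85). Between the members r was 0.75, the tenth highest for each. Without scaling, these r values were 0.74, 0.72 and 0.74 for miR-1246, 0.98, 0.83 and 0.94 for miR-1260b, and 0.36 between the members. All are descriptions over 7 arrays, and scaled levels share the divisor of each array.

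Other miRNA names tied to structural RNA genes that were on the array were not detected. Of a list of 10 such names, 3 were on the array: miR-1248, miR-1291 and miR-1839, whose precursors overlap or derive from small nucleolar or small Cajal body RNAs, guides of RNA modification. All 3 were called detected on 0 of 7 arrays, so none was tested. Of all 744 bovine miRNAs, 124 (16.7%) were detected on at least 1 array, so most names on the array were likewise undetected.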

How the data were processed

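Per the labels' protocols, small RNA was isolated from plasma with a commercial kit (miRNeasy) and 50 ng of it labelled with Cy3. Per the file headers, Agilent Feature Extraction 11.0.1.1 read the arrays (1 slide, 1 scan date). In the deposited files each spot's intensity has its array's own background subtracted, with no scaling across arrays. Undetected miRNAs carry an intensity of 0.1. The authors' deposited log2 values equal log2 of the intensity per miRNA plus 3.32, to within 7.35e-06, for the 730 names matched; that constant is log2 of 10, so the values are log2 of the intensity over 0.1.

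Control and flagged spots were left out. miRNAs detected on at least 3 arrays (88) were fitted with limma 3.58.1 in R 4.3.3 and adjusted together (Benjamini-Hochberg, 0.05). Single values per array were compared with exact permutation tests. All tests were two-sided. The limma fit and the permutation tests of groups and of spread were checked on simulated data, the correlation test was not. Having few arrays limits how precise any value can be.

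The members, lists and settings were chosen with earlier results of these data known. Named are the members, the 3 miRNAs most like each by r, and a list of 10 names tied to structural RNAs. Each group filled its own row of the slide, so that group and slide row cannot be told apart. Whether cow numbers shared between groups pair the arrays could not be told. Deviations of equal numbers from their group means correlated at 0.094, 0.65 and -0.20, which does not settle it. The main tests treated the arrays as unpaired.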

Additional observations from a re-analysis of the deposited data

How the results depend on the processing

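The scaled difference of miR-1246 kept its sign in 21 of 24 alternatives and turned with quantile scaling (-0.027), normexp (-0.13) and the software signal (-0.20). With an array left out it ran from 0.045 to 0.60. That of miR-1260b kept its sign in 18 of 24. It turned without scaling (0.093), with the percentile over all probes (0.19), with array weights (0.045) and in the deposited table (0.17), and ran from -0.23 to 0.068 with an array left out. Its lowest value, -0.46, came with the software signal. limma called 0 miRNAs in all of these settings, and no alternative moved either member past the threshold. The alternative detection filters, variance model and permutation test changed only the test or the miRNAs tested. They left both differences as in the main fit, so their signs could not turn. In the replicate block fit, with cow number as a block, the differences were 0.20 and -0.23, and the block changed no call. Keeping only the brighter probe of each miRNA, a setting chosen after seeing the data, gave 0.089 and -0.14.

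The difference in log2 signal of miR-1246 ran from 0.21 to 0.57 with an array left out. That of miR-1260b ran from -0.44 to 0.59 and was -0.13 with normexp. The difference in share, in percentage points, ran with an array left out from -0.025 to 0.087 for miR-1246 and from -0.0090 to 0.011 for miR-1260b. Against a total without the 8 brightest miRNAs, which is smaller and so gives larger shares, it was -0.17 for miR-1246 and -0.19 for miR-1260b. The difference in log2 ratio ran from -0.089 to 0.65.

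The lower spread lost its call against a total without the 8 brightest miRNAs (SD differences -0.53 and -0.16) and against the 75th percentile (-0.70 and -0.34). With an array left out, the SD differences ran from -0.75 to -0.54 and from -0.37 to -0.19. The r with the total ran from -0.58 to 0.78 for miR-1246 and from 0.86 to 0.97 for miR-1260b. The causes were not tested. Signals of the shorter probes near background limit what the scaled levels show.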
